A study of Drosophila melanogaster with 31 samples.

Results

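The heat shock chaperone genes considered here were 7 genes chosen by name: *Hsp68*, *Hsc70-2*, *Hsc70-3*, *Hsc70-4*, *Hsp83*, *Hsp26* and *Hsp27*. They were picked with expression values already in view, because *Hsp68* and *Hsc70-2* differed strongly between wild-type and *ato* mutant GFP− cells. Of the 7, 6 had a probe set that named the gene alone, 1 probe set each, among 11982 genes measured in that way. *Hsp83*, which encodes the fly Hsp90, had no such probe set in the platform table and was not analysed here. The comparison that chose the genes, and all comparisons of a group used in it, are given as descriptions without a test. The tested comparisons are of other groups, but their spread was estimated over all groups.

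The study profiled gene expression in sorted cells of *Drosophila melanogaster* embryos to follow chordotonal neuron precursors, the cells that build stretch-sensitive sense organs. Cells were marked by GFP driven from an upstream fragment of *atonal* (*ato*), the proneural gene for these organs, and each embryo collection was dissociated with trypsin and sorted into GFP+ and GFP− cells. Wild-type embryos (genotype atoGFP.7;w118) were collected at 5.75 to 6.75 hours (t1), 6.75 to 7.75 hours (t2) and 7.75 to 8.75 hours (t3) after egg laying. Mutant embryos (atoGFP.7;ato(mutant);w118) were collected at t1 only.

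All groups carried the GFP transgene of 1 line together with w118, as the labels write it, and the mutant stock was made by repeated crosses of *ato1*, presumed to be a null allele, to that line. The genotype, the stock and the embryo collections of the mutant therefore cannot be told apart. There were 31 arrays in 8 groups, 4 arrays each except wild-type GFP− at t3 with 3. The GFP class of wild-type GFP− replicate 4 at t2 is given differently by its title and its source description, and the title was followed. Mutant embryos yielded fewer GFP+ cells than wild-type embryos. The labels describe dissociation at room temperature and 1 round of amplification, while the published methods describe cells on ice and a second round, so the temperature at which the cells were handled is not settled.

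Chaperones bind unfolded proteins and help them to fold or keep them from aggregating. The Hsp70 family uses cycles of ATP binding and hydrolysis, driven by J-domain partners and nucleotide exchange factors, whereas small heat shock proteins hold unfolding proteins without ATP. *Hsp68*, *Hsp26* and *Hsp27* are classical heat-inducible genes of the fly, with developmental expression known for the latter pair, and the cognate genes *Hsc70-3* and *Hsc70-4* are expressed without heat.

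Values are RMA log2 expression, a background-corrected, quantile-normalised summary of the probes of a set. A difference of 1 is a 2-fold difference. Array medians lay between 4.71 and 4.84. Calls required limma to give an adjusted p no higher than 0.01 and a change no smaller than 1.5-fold, and levels were compared within a gene only, since probe sets differ in brightness. The summed level of 5 chordotonal precursor markers was 13.7 to 13.8 in wild-type GFP+ arrays at t1 and 9.99 to 10.3 in the GFP− arrays, and 12.4 to 12.8 against 9.38 to 9.74 in the mutant. In such bulk samples fewer cells that express a gene and less RNA per cell cannot be told apart.

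**Figure D1:**
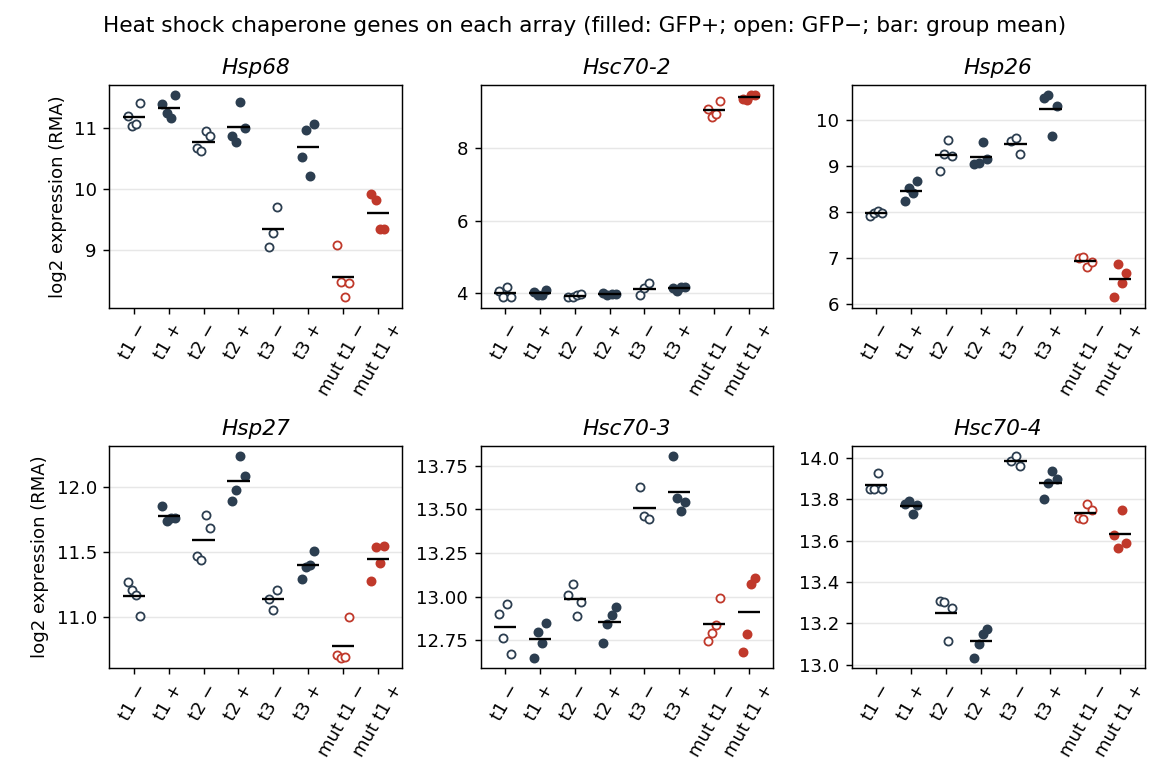
Log2 expression of the 6 measured genes on each of the 31 arrays, by stage, genotype and GFP class (filled, GFP+; open, GFP−; red, mutant; bar, group mean), with a separate vertical axis for each gene. *Hsc70-2* lies between 3.87 and 4.28 on all 23 wild-type arrays and between 8.87 and 9.48 on the 8 mutant arrays, while *Hsp26* is lower on every mutant array than on any wild-type array.

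*Hsc70-2*, a cognate member of the Hsp70 family on chromosome arm 3R, separated the genotypes most widely. In wild-type GFP+ cells at t1 its values averaged 3.99 ± 0.06 (SD, n = 4), and in mutant GFP+ cells they were 9.36, 9.34, 9.48 and 9.46. The mutant GFP− arrays gave 9.10, 8.87, 8.95 and 9.30, against 4.00 ± 0.14 (SD, n = 4) in wild-type GFP− cells. All 8 mutant arrays thus lay far above all 23 wild-type arrays. The wild-type values were below the median of every array, and as no detection call was used here, they cannot be told from background.

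*Hsp68*, a heat-inducible Hsp70 gene also on 3R, went the other way. Wild-type GFP+ cells at t1 read 11.38, 11.24, 11.15 and 11.53, and mutant GFP+ cells 9.92, 9.83, 9.35 and 9.35. In GFP− cells the values were 11.19, 11.03, 11.06 and 11.41 in wild type and 9.09, 8.48, 8.24 and 8.47 in the mutant. The genotypes did not overlap in either class. Mutant replicate 1 was the highest of its group in both classes.

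*Hsp68* also varied with stage. At t2 it read 10.87, 10.77, 11.42 and 11.00 in GFP+ cells and 10.67, 10.62, 10.94 and 10.86 in GFP− cells. At t3 the GFP+ arrays read 10.53, 10.96, 10.21 and 11.06, and the GFP− arrays 9.05, 9.28 and 9.71. The GFP− cells at t3 were thus lower than all other wild-type groups, with no overlap. In the order of its group means, the 5 highest groups were wild-type GFP+ and GFP− at t1 and t2 and GFP+ at t3 (11.33 down to 10.69), and no neighbours among these differed by more than the SD within groups (0.29). Mutant GFP+ (9.61 ± 0.30, SD, n = 4) and wild-type t3 GFP− (9.35 ± 0.33, SD, n = 3) were likewise closer than that, and mutant GFP− was the lowest (8.57 ± 0.37, SD, n = 4).

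*Hsp26*, a small heat shock protein gene on 3L, was lowest in the mutant and highest late in wild type. Its values at t1 were 8.24, 8.53, 8.41 and 8.68 in wild-type GFP+ cells and 6.15, 6.86, 6.47 and 6.67 in mutant GFP+ cells. The GFP− cells gave 7.92, 7.98, 8.02 and 7.98 in wild type and 7.01, 7.03, 6.82 and 6.91 in the mutant. None of the mutant arrays reached a wild-type value. At t2 the group means were 9.21 ± 0.23 in GFP+ and 9.24 ± 0.28 in GFP− cells (SD, n = 4). At t3 the GFP+ arrays read 10.49, 10.55, 9.67 and 10.30, of which replicate 3 was the lowest, and the GFP− arrays 9.56, 9.61 and 9.27.

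*Hsp27*, the other small heat shock protein gene, lies on 3L next to *Hsp26* among the measured genes of the Release 6 plus ISO1 MT annotation. It moved within a narrower range. Wild-type cells at t1 averaged 11.78 ± 0.05 in GFP+ and 11.16 ± 0.11 in GFP− cells, and mutant cells 11.45 ± 0.13 and 10.77 ± 0.15 (SD, n = 4 each). Its highest group was wild-type GFP+ at t2 (12.05 ± 0.15, SD, n = 4).

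*Hsc70-3* and *Hsc70-4* differed little between genotypes. *Hsc70-3* (arm X), whose product is the BiP chaperone of the endoplasmic reticulum, averaged 12.76 ± 0.09 in wild-type and 12.91 ± 0.21 in mutant GFP+ cells at t1 (SD, n = 4). *Hsc70-4* (3R), the main cytosolic cognate, averaged 13.77 ± 0.03 and 13.63 ± 0.08 (SD, n = 4). In GFP− cells *Hsc70-4* differed by -0.13 without overlap.

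The comparison of mutant with wild-type GFP+ cells at t1 asked what differs in the marked cells without *ato* function. The 2 groups compared held none of the arrays that chose the genes. The spread behind each SE and p was estimated over all groups, those that chose the genes included. However, the published methods describe both classes as collected in each run, and the paper describes the mutant classes as coming from shared embryos. The comparison is therefore not an independent set. *Hsc70-2* was higher in the mutant, with a log2 difference of 5.42 between the readings (SE 0.08, adjusted p = 7.8e-30), or at least 42.8-fold, a lower bound because the wild-type reading cannot be told from background. *Hsp26* fell by 1.93 (SE 0.16, adjusted p = 8.0e-11) and *Hsp68* by 1.72 (SE 0.18, adjusted p = 1.6e-08). In the order from the lowest these were the 22nd and 30th of 11982 genes.

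Thus 3 of 6 measured genes were called, 1 higher and 2 lower, where 6.28% of all genes were called, 3.41% higher and 2.87% lower. *Hsc70-2* and *Hsp68* were in the set because of their genotype difference in GFP− cells. The count therefore cannot show that the set differs from all genes. Among the measured genes not picked for that difference, only *Hsp26* was called. *Hsp27* differed by -0.34 (SE 0.09, adjusted p = 6.4e-03), below the 1.5-fold limit although its groups did not overlap. *Hsc70-3* differed by 0.15 (SE 0.09, adjusted p = 0.31) and *Hsc70-4* by -0.13 (SE 0.06, adjusted p = 0.12). The median difference of the 6 genes was -0.23, against -0.01 over all genes.

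Other cell markers moved with the same comparison. All 5 measured chordotonal precursor markers were called lower in mutant GFP+ cells, as were 3 of 4 mesoderm and muscle, 3 of 4 endoderm and 2 of 3 glial markers, and none of 3 neuronal or 2 tracheal markers. Of the haemocyte markers 1 of 8, of the germ line markers 2 of 6 and of the amnioserosa markers 1 of 4 were called lower, and no marker of the 9 lists was called higher. The summed endoderm level was 6.77 to 7.06 in mutant and 8.33 to 9.09 in wild-type GFP+ arrays, with all 4 endoderm markers below a group mean of 6 in the mutant. The summed mesoderm and muscle level was 9.73 to 10.1 against 10.7 to 11.0, and that of glia 8.77 to 9.24 against 9.19 to 10.0. The part of these markers in the chaperone differences was not tested.

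In GFP− cells, the contrast that chose the genes, *Hsc70-2* read 5.05 higher in the mutant, at least 33.2-fold by the same bound, and *Hsp68* 6.06-fold lower (-2.60). *Hsp26* differed by -1.04, *Hsp27* by -0.39, *Hsc70-4* by -0.13 and *Hsc70-3* by 0.02. In all, 3 of the 6 genes passed 1.5-fold and 5 did not overlap between genotypes, where 10.6% of all genes passed 1.5-fold and 32.8% did not overlap. The summed endoderm marker level in GFP− cells was 10.3 to 10.5 in the mutant and 11.0 to 11.3 in wild type, and that of mesoderm and muscle 11.6 to 12.0 and 11.9 to 12.0. Amnioserosa markers summed to 10.02 to 10.35 in the mutant and 11.11 to 11.37 in wild type. For glia the sums were 11.53 to 11.78 and 11.85 to 12.20, and for germ line 11.58 to 11.72 and 11.92 to 12.01. Haemocyte, tracheal and neuronal sums overlapped between genotypes. The part of these markers was not tested.

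**Figure D2:**
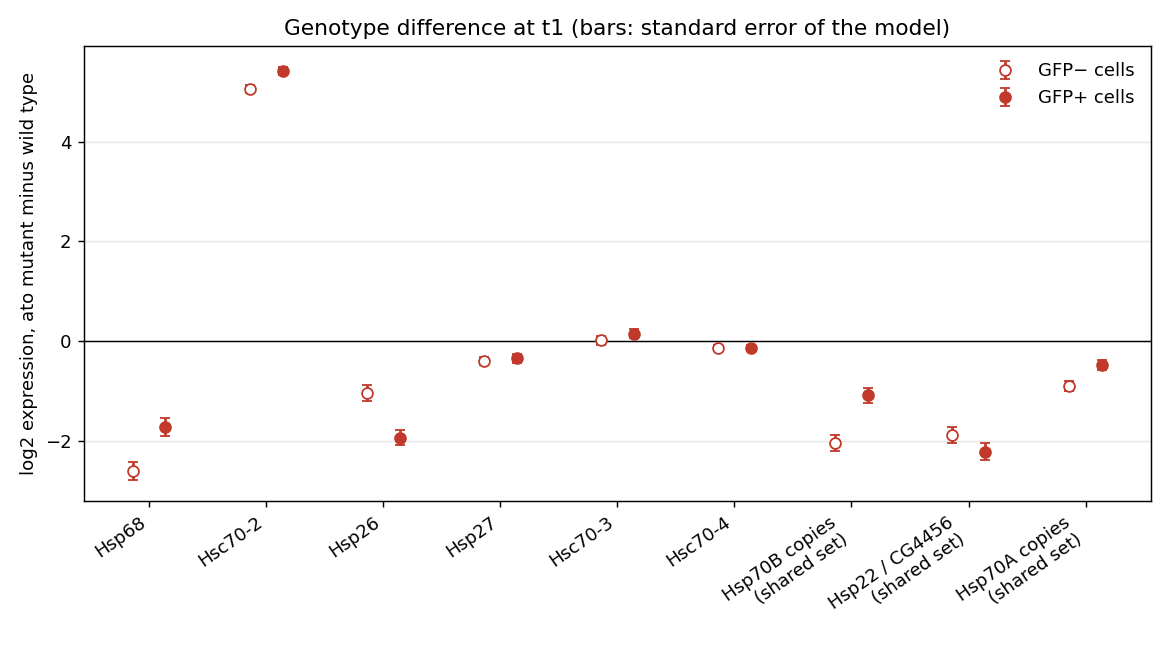
Log2 expression in mutant minus wild-type cells at t1 for the 6 genes and for 3 probe sets shared by several heat shock genes (filled, GFP+; open, GFP−; bars, standard error of the limma model). *Hsc70-2* is more than 5 higher in both classes, and *Hsp68*, *Hsp26* and the shared probe sets are below 0 in both.

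The heat-inducible *Hsp70* genes are near-identical copies, and the platform table gives their probe sets to several genes at once. None is assigned here to a single gene. A bright probe set shared by *Hsp70Ba*, *Hsp70Bb*, *Hsp70Bbb* and *Hsp70Bc* read 12.75, 12.74, 12.69 and 12.94 in wild-type GFP+ cells at t1 and 12.02, 11.88, 11.46 and 11.42 in mutant GFP+ cells. It was 1.08 lower on the log2 scale, a 2.12-fold difference (SE 0.15, adjusted p = 3.4e-06), and the genotypes did not overlap. In GFP− cells it read 12.27, 12.18, 12.32 and 12.40 in wild type and 10.63, 10.34, 9.92 and 10.13 in the mutant, a difference of -2.04. A probe set shared by *Hsp70Aa* and *Hsp70Ab* differed by -0.48 in GFP+ cells (SE 0.09, adjusted p = 3.7e-04, under 1.5-fold) and by -0.89 in GFP− cells.

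A probe set shared by *Hsp22*, a mitochondrial small heat shock protein gene, and *CG4456* differed by -2.21 in GFP+ cells (SE 0.16, adjusted p = 8.3e-12) and by -1.88 in GFP− cells. A dim probe set of the same gene pair differed by -0.20 in GFP+ cells (adjusted p = 0.24), and a dim probe set of the 4 *Hsp70B* copies by -0.37 (adjusted p = 0.13). The group means of these dim probe sets in GFP+ cells lay between 4.09 and 5.51, near the array medians, where a change of the size seen in the bright ones may not show. The dim *Hsp70B* probe set did differ elsewhere. It was 0.58 lower in mutant than in wild-type GFP− cells at t1, without overlap. At t3 it was called higher in GFP+ than in GFP− cells (0.76, SE 0.17, adjusted p = 1.8e-03).

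Differences between GFP+ and GFP− cells of 1 genotype and stage asked which genes mark the *ato* lineage. At t1 in wild type, described without a test, *Hsp27* was 0.62 higher in GFP+ cells, *Hsp26* 0.49 and *Hsp68* 0.16. Of the 6 genes 1 passed 1.5-fold and 3 did not overlap, where 7.69% and 24.4% of all genes did so. In the mutant *Hsp68* was 1.04 higher in GFP+ cells, *Hsp27* 0.67 and *Hsc70-2* 0.36, and these 3 did not overlap between the classes, as 36.8% of all genes did not. Past 1.5-fold were 2 of the 6, and 14.4% of all genes. *Hsp26* differed there by -0.40, with overlap.

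At t2 none of the 6 genes was called between the classes, where 8.95% of genes were. The bright probe set of the 4 *Hsp70B* copies was called, 0.60 higher in GFP+ cells (SE 0.15, adjusted p = 4.7e-03). That call was lost in 5 of 8 fits that left out 1 array, with differences of 0.47 to 0.66. Of the named genes *Hsp27* was nearest, at 0.45 (SE 0.09, adjusted p = 2.1e-04) but under 1.5-fold, and its groups did not overlap. The differences of *Hsp68* (0.24, adjusted p = 0.45) and *Hsp26* (-0.04, adjusted p = 0.93) were within the replicate spread.

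At t3 *Hsp68* was 2.54-fold higher in GFP+ cells (log2 difference 1.34, SE 0.20, adjusted p = 1.0e-05) and *Hsp26* 1.71-fold (0.77, SE 0.17, adjusted p = 1.2e-03). That was 2 of 6 genes, both higher, where 7.33% of all genes were called and 2.97% were called higher. *Hsp27* differed by 0.26 (adjusted p = 0.056). The bright probe set of the 4 *Hsp70B* copies was 1.23 higher (SE 0.17, adjusted p = 3.9e-06), reading 12.65, 12.76, 12.09 and 13.00 in GFP+ and 11.32, 11.36 and 11.51 in GFP− cells. Its difference at t3 was not called larger than at t2 (0.63, SE 0.23, adjusted p = 0.091). Replicate 3 of the GFP+ cells was the lowest of its group for *Hsp68*, *Hsp26* and this probe set, without reaching the GFP− values. When limma weighted arrays by their fit, t3 arrays had the lowest weights. These were GFP+ replicates 3 (0.42) and 4 (0.43) and GFP− replicate 3 (0.46).

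The calls at t3 depended on the model. Neither gene was called in a fit of the 2 groups alone (adjusted p = 0.027 for *Hsp68* and 0.065 for *Hsp26*) or with the replicate number as a fixed block in it (0.030 and 0.028), and *Hsp26* was not called without GFP− replicate 3 (0.67, adjusted p = 0.013).

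The difference at t3 exceeded that at t2 for *Hsp68*, by 1.10 (SE 0.27, adjusted p = 6.5e-03), so that 1 of 6 genes was called where 5.5% of all were. From t2 to t3 *Hsp68* fell by 1.43 in GFP− cells and differed by -0.32 in GFP+ cells (adjusted p = 0.13). The call was lost in 9 of 15 fits that left out 1 array, among them the fit without t3 GFP− replicate 1 (0.96, adjusted p = 0.034). *Hsp26* had a difference of 0.81 (SE 0.23, adjusted p = 0.024), which was not called, but was called without t3 GFP+ replicate 3 (1.00, adjusted p = 7.5e-04).

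Marker levels in the GFP+ arrays also differed between these stages. From t2 to t3 the summed chordotonal precursor level was 13.4 to 13.8 and then 11.2 to 12.3, that of haemocyte markers 9.35 to 9.62 and then 11.4 to 12.5, and that of glia 9.87 to 10.3 and then 12.0 to 12.3. The endoderm level in GFP+ arrays was 8.25 to 8.60 and then 9.14 to 10.2. In GFP− arrays the haemocyte level was 11.2 to 11.5 and then 12.8 to 13.2. There the glial level was 11.9 to 12.2 and then 12.1 to 12.4, and the chordotonal precursor level 9.99 to 10.4 and then 9.76 to 10.3. The part of these markers in the t3 results was not tested.

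**Figure D3:**
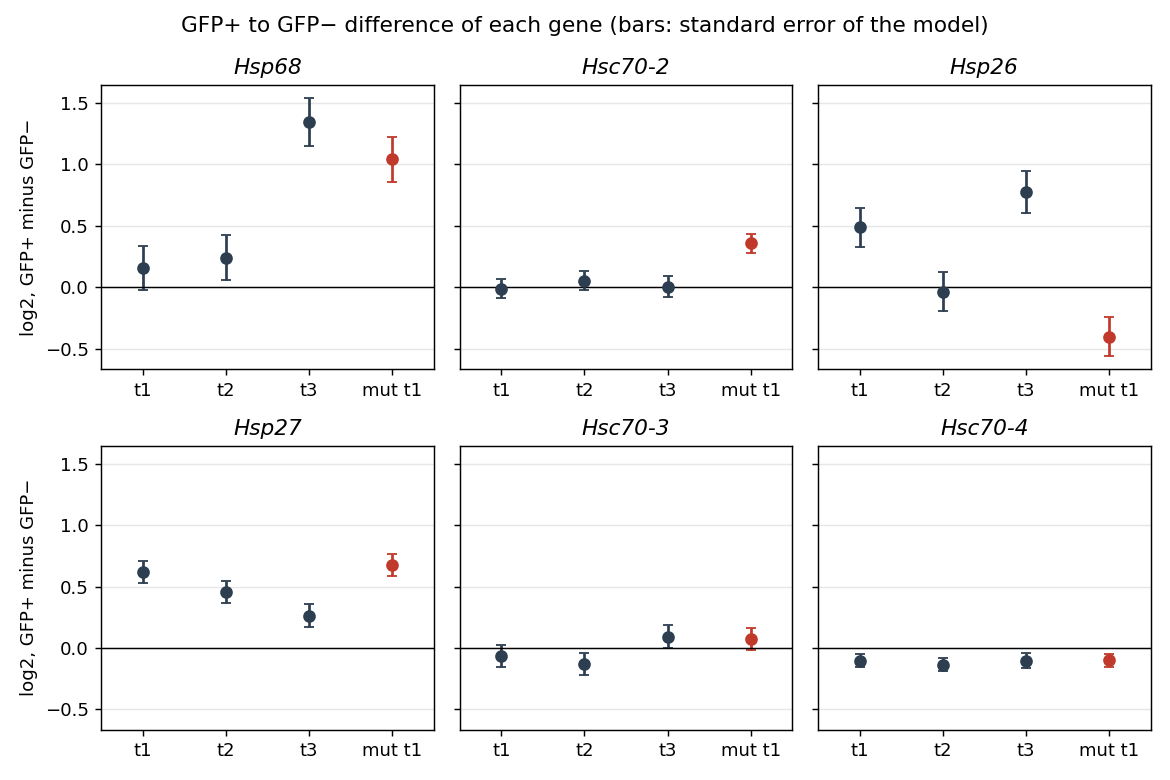
Log2 expression in GFP+ minus GFP− cells for each gene at t1, t2 and t3 in wild type and at t1 in the mutant (red), with the standard error of the limma model. *Hsp68* stands at 1.34 at t3 and 1.04 in the mutant, while *Hsc70-3* and *Hsc70-4* stay within 0.14 of 0 in all 4 comparisons.

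Each stage had its own embryo collections, so in comparisons over time stage and collection cannot be told apart. *Hsp26* rose in GFP+ cells in both steps, by 0.74 from t1 to t2 (SE 0.16, adjusted p = 3.5e-04) and by 1.05 from t2 to t3 (SE 0.16, adjusted p = 1.2e-06). *Hsc70-4* fell by 0.65 from t1 to t2 in GFP+ cells (SE 0.06, adjusted p = 6.7e-11) and rose by 0.76 from t2 to t3 (SE 0.06, adjusted p = 4.9e-13). These were the called genes of the first step, 2 of 6, where 13.6% of all genes were called. In the GFP− cells, without a test, *Hsp26* was 1.26 higher and *Hsc70-4* differed by -0.62 over the same step. In all, 2 of 6 genes passed 1.5-fold and 4 did not overlap, where 17.1% and 42.7% of all genes did so.

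From t2 to t3 in GFP+ cells, *Hsc70-3* also rose, by 0.75 (SE 0.09, adjusted p = 1.6e-08), and *Hsp27* fell by 0.65 (SE 0.09, adjusted p = 1.9e-07), which made 4 of 6 genes where 29.1% of all were called. In GFP− cells *Hsc70-4* rose by 0.73 (SE 0.06, adjusted p = 1.0e-11) and *Hsp68* fell by 1.43 (SE 0.20, adjusted p = 3.3e-07), 2 of 6 where 26.9% were called. *Hsc70-3* differed by 0.52 (SE 0.10, adjusted p = 3.1e-05) and *Hsp27* by -0.46 (SE 0.10, adjusted p = 1.5e-04) in GFP− cells, both under 1.5-fold. *Hsc70-2* stayed near its low level throughout wild type and was called in none of the 3 tested steps.

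Among replicate arrays, *Hsp68* deviated from its group mean together with the bright *Hsp70B* probe set (Pearson r 0.914 over 31 arrays) and with that of *Hsp22* and *CG4456* (r 0.683). The shared probe sets hold several genes. With the other named genes the within-group r of *Hsp68* ran from -0.42 for *Hsc70-3* to 0.35 for *Hsp26*. Over 15 pairs of a GFP+ and a GFP− array with the same genotype, stage and replicate number, which the labels do not tie to shared embryos, the deviations correlated at 0.65 for *Hsp27*, 0.61 for *Hsp26* and 0.37 for *Hsp68*, and at 0.09 for *Hsc70-2*.

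The genes most like *Hsc70-2* over the 31 arrays, by Pearson r, were *Zip102B* (r 0.998), a zinc transporter gene on chromosome 4, then *CG32485* (0.970), *LysX* (0.965), a lysozyme gene, and *lncRNA:CR32368* (0.957), all on 3L, and *Hrb27C* (0.930), an RNA-binding protein gene on 2L, and *CG41099* (0.926) on 3R. Their likeness rests on the genotype difference. *Zip102B* lay between 4.54 and 5.14 on the wild-type and between 9.26 and 10.0 on the mutant arrays, and *LysX* between 3.85 and 4.40 and between 6.01 and 8.26. In GFP+ cells at t1 *Zip102B* read 5.05 higher in the mutant, *CG32485* 3.94 and *LysX* 3.88, against wild-type readings near or below the array median, so these sizes have no order.

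**Figure D4:**
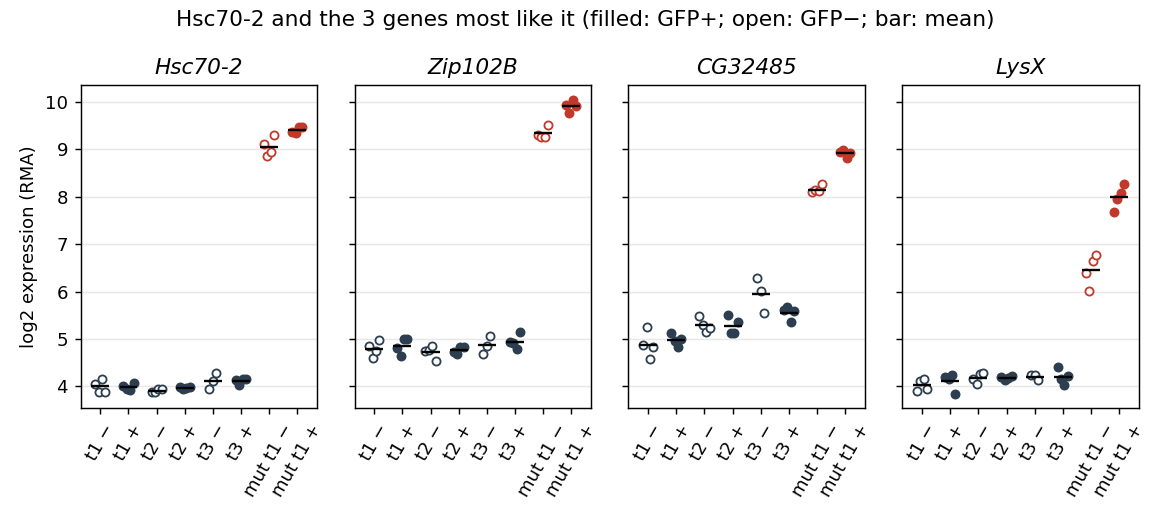
Log2 expression of *Hsc70-2* and of the 3 genes with the highest correlation to it, on each array (filled, GFP+; open, GFP−; red, mutant; bar, group mean). No mutant array overlaps a wild-type array for any of the 4 genes, and for each of them the mutant GFP− arrays lie below the mutant GFP+ arrays.

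*Hsc70-2* was 1 of 13 genes called past 8-fold between the GFP+ groups at t1, a set described after its values were seen. Of these 6 were higher in the mutant, *Hsc70-2*, *CG6040* and *Zip102B* among them, and 7 were lower, among them *htl* (-4.01), the heartless FGF receptor gene, and *cato* (-3.47), a proneural relative of *ato*. By arm, 7 lay on 3R, 3 on chromosome 4, 2 on 3L and 1 on 2R, where the arms held 2973, 65, 2344 and 2427 measured genes. *ato* itself is on 3R, with 563 measured genes between it and *Hsc70-2* and 1683 between it and *Hsp68*. In the stretch of 200 measured genes that holds *ato*, 5% were called and 0 passed 8-fold. The part of distance from *ato* was not tested. Around *Hsc70-2*, 2 of the 10 nearest measured genes were called, *CG31157* (1.47) beside it and *CG11668* (-0.63), and around *Hsp68* likewise 2 of 10 (*eIF4EHP*, 0.78, and *CG18428*, -0.65). Around each other measured gene of the set 1 or 2 of 10 were called. Over the whole of 3R 6.16% of genes were called.

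Among genes with a probe set of their own, those most like *Hsp68* over the 31 arrays were *Fbxl4* (r 0.879), *CG32212* (0.875), *CG15317* (0.874), *CG2681* (0.874), *DnaJ-1* (0.872) and *MED11* (0.867). The bright shared probe sets of the *Hsp70B* copies (0.898) and of *Hsp22* and *CG4456* (0.891) had a higher r. All these r include the differences between groups. *DnaJ-1* encodes the J-domain partner of Hsp70 that is itself heat-inducible. Among the listed genes with their own probe set it had the smallest genotype difference, -0.52 in GFP+ and -0.41 in GFP− cells, while *CG2681* differed by -1.71 and -1.92.

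The wider chaperone network and a set of stress response genes were described by 8 lists with 88 entries, of which 63 had a probe set of their own. Of these lists 1 holds JNK, immediate early and cell death genes rather than chaperones, with 17 entries and 11 measured genes. In mutant against wild-type GFP+ cells 2 of the 63 were called, against 6.28% of all genes. *Grp170*, an exchange factor for BiP in the endoplasmic reticulum, was 0.83 higher (SE 0.06, adjusted p = 2.2e-11), and *Fkbp59*, an immunophilin that works with Hsp90, was lower, by -0.77 (SE 0.09, adjusted p = 1.2e-07). None was called among 4 other small heat shock proteins, 13 J-domain and exchange co-chaperones, 12 chaperonins, 8 endoplasmic reticulum chaperones and stress regulators, or 11 JNK, immediate early and cell death genes. *Hsf*, which encodes the heat shock transcription factor, differed by 0.03.

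Between the classes at t3 the co-chaperone gene *stv*, which encodes a BAG-domain exchange factor of Hsp70, was 0.98 higher in GFP+ cells (SE 0.24, adjusted p = 3.8e-03), although its groups overlapped. The call was lost on leaving out replicate 3 of the GFP− group (0.65), or replicate 1 (0.75) or replicate 4 (0.90) of the GFP+ group, and in the fit of the 2 groups alone (adjusted p = 0.19). *Fkbp59* was lower in GFP+ cells at t3 (-0.67, SE 0.10, adjusted p = 1.0e-05), but under 1.5-fold without GFP− replicate 1 (-0.56) and not called in the fit of the 2 groups alone (adjusted p = 0.034). Its difference at t3 lay below that at t2 (-0.76, SE 0.13, adjusted p = 2.0e-04). *Hsp60A*, the mitochondrial chaperonin gene, was lower in GFP+ cells at t2 (-1.56, adjusted p = 2.3e-10) and t3 (-0.85, adjusted p = 1.1e-04). The Hsp90 relative *Trap1*, also mitochondrial, was lower at t3 (-0.73, adjusted p = 5.2e-07). At t2 *Hsc70-5*, the mitochondrial Hsp70 gene, was lower in GFP+ cells (-0.61, adjusted p = 4.6e-08), though under 1.5-fold when arrays were centred on ribosomal protein genes (-0.43), as was the J-domain gene *mrj* (-0.94, adjusted p = 1.2e-06).

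Over all genes 16.6% were called higher and 12.5% lower from t2 to t3 in GFP+ cells, and 15.6% and 11.3% in GFP− cells. From t2 to t3, 5 of 12 chaperonins were higher in GFP+ and 7 of 12 in GFP− cells, and none was called lower, with median differences of 0.45 and 0.70 where all genes had -0.09 in both. Of 8 endoplasmic reticulum genes 6 rose in GFP+ and 4 in GFP− cells, among them *ERp60* (1.90 and 1.48), a disulphide isomerase gene, and *Atf6* (1.34 and 1.54) and *Ire1* (1.27 and 1.50), sensors of unfolded protein. Of 13 co-chaperones 6 rose and 2 fell in GFP+ cells, and 6 rose and 3 fell in GFP− cells. Of 5 other Hsp70 family genes *Hsc70-5* rose, by 1.46 in GFP+ and 1.40 in GFP− cells, and *CG7182* fell by 0.86 in GFP+ cells. *Gp93*, the Hsp90 gene of the endoplasmic reticulum, rose by 1.28 and 1.14, and *Trap1* by 0.96 and 1.26. Among the chaperonins *Hsp60A* rose by 2.58 and 1.87, and the cytosolic subunit genes *CCT1* by 1.01 and 1.03 and *CCT8* by 1.02 and 1.17. Among the co-chaperones *mrj* rose by 2.56 and 1.60, and *Sec63*, a J-domain gene of the endoplasmic reticulum, by 1.75 and 1.39. *stv* rose by 3.71 and 2.84, *CG7130* fell by 1.20 and 1.49, and *DnaJ-1* fell by 0.59 in GFP− cells. *Hsf* rose by 0.96 and 0.64, while the 4 other small heat shock protein genes with their own probe set were not called in any of the 7 tested comparisons. The bright probe set shared by *Hsp22* and *CG4456* fell by 1.33 and 2.00 (adjusted p = 3.0e-08 and 5.1e-11). At t3 it was called 1.07 higher in GFP+ than in GFP− cells (adjusted p = 4.8e-05). The dim probe set of this pair went the other way in these comparisons, without a call. Of the 11 JNK, immediate early and cell death genes 5 rose in both classes and none fell, among them *egr* (2.63 and 2.06), which encodes the fly TNF ligand, *GstD1* (2.38 and 1.12), a detoxification gene, *Atf3* (2.03 and 1.39) and *puc* (1.10 and 0.86), the phosphatase gene that JNK signalling induces.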

How the data were processed

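The authors deposited log2 expression values made by RMA with quantile normalisation from Affymetrix Drosophila 2.0 arrays, and these were used as given. No sequencing depth applies, so the number of arrays limits the precision, and the methods describe the replicates as independent samples without saying how they were separated. Control probe sets (183) were dropped and the other 18769 fitted in limma 3.58.1 (R 4.3.3) with a mean for each of 8 groups, and p-values were adjusted by Benjamini-Hochberg over all of them. A call needed 1.5-fold and an adjusted p of 0.01, the study's limits. Of the probe sets 13647 named 1 gene, 402 several and 4720 none in the platform table, and each gene is represented by its brightest own probe set. Names were updated through a RefSeq gene table, from which no coordinates are given as no genome build is named for the deposited values in the sources used here.

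The genes, lists and markers were chosen with earlier results of these data known. The genes named are all 7, list genes called in a tested comparison (in the text, those with the larger differences of each list) and the 6 genes most like *Hsp68* and *Hsc70-2*. GFP+ and GFP− arrays of 1 replicate number correlated in their deviations at 0.213 to 0.299 in the mutant, and at -0.02 to 0.56 over the wild-type collections. These ranges overlap, so they do not settle which replicate numbers mark a shared collection. Promoter and protein sequences were not used here.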

Additional observations from a re-analysis of the deposited data

Results flagged for a closer look

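The difference between GFP+ and GFP− cells for *Hsp68* was larger at t3 than at t2 by 1.10 on the log2 scale, as tested within limma (adjusted p = 6.5e-03). The call was lost in 9 of 15 fits that left out 1 array and when the 4 groups were fitted alone (adjusted p = 0.018). In all it was lost in 14 of 25 alternatives.

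Single arrays stood apart from the other 3 of their group for 3 genes. *Hsc70-2* read 4.03 in wild-type t3 GFP+ replicate 2, against 4.14 to 4.15 on the others. *Hsc70-4* read 13.93 in wild-type t1 GFP− replicate 3, against about 13.85 on the others. *Hsp27* read 11.00 in mutant GFP− replicate 4, against 10.68 to 10.71. Groups of 4 were examined 63 times over the named genes and shared probe sets, and chance alone flags about 1 in 20.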

How the results depend on the processing

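The 3 calls in mutant against wild-type GFP+ cells kept their direction and stayed past the limits under all 18 alternatives, the fit with arrays of 1 number as a replicate block among them (count 3), with log2 differences of 5.40 to 5.50 for *Hsc70-2*, -2.03 to -1.80 for *Hsp26* and -1.82 to -1.63 for *Hsp68*. Between GFP+ arrays of 1 replicate number in the 2 genotypes, the r of deviations was -0.17 to 0.28, which does not settle whether these numbers pair. Between the classes at t3 the count of 2 became 0 when only the compared groups were fitted, with collection as a fixed replicate block, and when 1.5-fold was the null of the test, and was 1 to 2 with each array left out. At t2 the count of 0 became 1 (*Hsp27*) when arrays were centred on 47 ribosomal protein probe sets. For t3 less t2 the count of 1 became 2 at an adjusted p limit of 0.05 and with array weights. It became 0 with ribosomal centring, an intensity trend with robust estimates, the compared groups alone, and the 1.5-fold test. With each array left out it was 0 to 2. Of the 25 alternatives *Hsp68* was not called in 14 and *Hsp26* was called in 4, so a count of 1 did not always stand for *Hsp68*. The 1.5-fold test also left 0 of 2 from t1 to t2 in GFP+ cells, 0 of 4 from t2 to t3 in GFP+ cells and 1 of 2 (*Hsp68*) in GFP− cells. Ribosomal centring left 1 of 2 from t1 to t2 (*Hsc70-4*) and moved the median of all genes there from 0.03 to -0.21. No called value changed sign. No raw intensities were used, so background correction was not varied. The search of promoters for heat shock elements was not run, as promoter sequences were not used here.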
